A study of Saccharomyces cerevisiae with 14 samples.

Results

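The first growth cycle in glucose was examined for all 16000 variants of a library of the N-terminal tail of human cofilin-1, as the change of each variant's share of the reads between T0 and T1 in 3 screens. The libraries are 6 of the 14 samples of the series, 3 taken at T1 and 3 at T0, and no variant was left out. The yeast is the TeTO7-COF1 strain, in which doxycycline (DOX) turns off the essential COF1 gene (YLL050C, chromosome XII, 39804 to 40414 in assembly R64), the only cofilin gene of budding yeast. T1 cells had grown in 2% glucose with DOX at 10 mg/L, and T0 cells in 2% raffinose with the same dose of DOX. The cells of both groups carried the library on a high-copy plasmid behind a constitutive promoter, with a His6 tag. They also carried FLAG-LIMK1 behind the GAL1 promoter, which glucose represses and growth in raffinose derepresses. T1 and T0 thus differ in sugar as well as in time, and the parts of these cannot be told apart. All screens were grown from frozen aliquots of 1 pool of transformed yeast, in a single strain, so the spread over 3 screens covers separate cultures but not separate transformations. The reads count plasmids in a mixed pool, and the counts analysed here hold neither the amount of cofilin protein nor the growth rate of a variant grown alone.

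Cofilin binds actin filaments, severs them and helps to take them apart, and yeast without any cofilin cannot grow. The disordered N-terminal tail is part of the surface that binds actin. It carries Ser3, the site at which LIM kinases phosphorylate animal cofilins and so inactivate them. A variant that supports growth without Cof1 is therefore set to gain share in the pool, and one that does not is diluted by the cells that divide.

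The library holds all 20 residues at positions 2, 4 and 5 and either Ser or Thr at position 3, numbered from the initiator Met, and each variant has 1 coding sequence. A variant is written by its residues at positions 2 to 5. The sequences below are those of the tails of human cofilin-1 (ASGV), yeast Cof1 (RSGV) and an Arabidopsis cofilin (ASGM), the Thr3 form of the human tail, and the 3 variants with the highest and the 3 with the lowest changes. They are shown because they span the range of outcomes, and capitals mark codons that differ from the human tail of the library.
ASGV: gctagcggtgtt
RSGV: CGTagcggtgtt
ASGM: gctagcggtATG
ATGV: gctACCggtgtt
WSLL: TGGagcCTGCTG
FTGL: TTCACCggtCTG
FSLV: TTCagcCTGgtt
GTGW: GGTACCggtTGG
ASKR: gctagcAAACGT
HTRN: CATACCCGTAAC

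The T1 libraries held 24706877, 40596403 and 23413923 reads in screens 1 to 3, against 13008751, 29439770 and 17836734 reads in the T0 libraries. The median variant had 426, 503.5 and 294 reads at T1 and 707, 1642.5 and 977 at T0. One variant had no read in the T1 library of screen 3, and every other count at T1 and T0 was above 0. The 100 most abundant variants took 5.37%, 5.41% and 5.44% of the reads at T1, against 2.44%, 2.20% and 2.38% at T0. The pool was thus more concentrated at T1 in each screen. Log2 changes of the same variant correlated between screens with Pearson's r of 0.93 to 0.94 over the 16000 variants, as a description, since variants share libraries. The spread over screens was wider at low counts: the median SD of the log2 change was 0.32 for variants with at least 500 reads in all 6 libraries and 0.87 for those whose lowest count was under 50. The lowest count includes the T1 libraries, so these classes also sort variants by how far they fell. Depth and size of the fall cannot be told apart here. Counts are PCR reads, so counting intervals would cover counting error only.

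Most variants lost share in this interval, and a minority took over the pool. By edgeR's quasi-likelihood test with the screen as a block, 4541 of 16000 variants (28.4%) rose and 10083 (63.0%) fell at an adjusted p below 0.05. Of these, 4500 of the risen and 10053 of the fallen had the same sign in every screen. The lowest T1 share lay above the highest T0 share for 4409 of the risen variants, and the highest T1 share lay below the lowest T0 share for 9929 of the fallen. The changes fell into 2 broad ranges. By the mean over screens, 8641 variants lay at a log2 change of −2 or lower and 3934 above 1, with 3425 between them. The median log2 change was −1.97, −2.24 and −2.31 in screens 1 to 3, and the 10th percentile was −3.17, −3.67 and −4.25, so that the losses were deepest in screen 3. The split depends on scaling, because a share can only grow at the expense of others: 5907 rose and 8391 fell with TMM factors, 6484 and 6251 with DESeq2 size factors, 7145 and 2199 when Asp5, Glu5, Lys5, Arg5 and His5 variants set the scale, and 4 and 15118 relative to ASGV. Residue terms, described next, are differences from the mean of all variants and are not changed by such a shift.

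Position 5 carried most of the difference between variants. Since each combination of residues occurs once, the variance of the log2 changes can be divided exactly. Position 5 held 54.7% ± 0.82 (SD over 3 screens) of it, position 4 held 9.19% ± 0.53, position 2 held 3.98% ± 0.32 and position 3 held 0.46% ± 0.03. The pairs of positions together held 15.6% ± 0.56, of which positions 4 and 5 held 8.52% ± 0.46. The remaining 16.1% ± 0.42 contains combinations of 3 or 4 residues and the measurement error. A residue term is the mean log2 change of the variants with that residue minus the mean of all variants, which was −1.36 ± 0.21 over the 3 screens. By limma on 1 value per screen, 26 of 62 terms (41.9%) were above 0 and 30 (48.4%) below it. These terms are relative, and a residue with a positive term can still have lost share on average.

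A group of 6 residues stood far above the others at position 5, in the order Met, Ile, Thr, Val, Leu and Cys, and the order was the same in every screen. Met5 had the highest term, at 2.68, 2.46 and 2.90 in screens 1 to 3 (estimate 2.68, SE 0.10, limma adjusted p = 0.00024), and 684 of its 800 variants rose while 42 fell. Ile5 followed with 2.20, 2.26 and 2.64, and 627 rose. Thr5, which is branched at the β carbon like Val and Ile but carries a hydroxyl group, had 2.01, 1.96 and 2.31, and 563 rose. Val5, the human residue, had 1.89, 1.92 and 2.30, and 550 rose. Met5 exceeded Ile5 by 0.20 to 0.47 within each screen, and Ile5 exceeded Thr5 by 0.19 to 0.34. Thr5 exceeded Val5 in every screen, but by only 0.01 to 0.12, and this difference was not tested. Leu5 (estimate 1.93, 496 rose) and Cys5 (1.80, 503 rose) came next, with Cys5 below Leu5 by 0.07 to 0.18 in each screen. Between Cys5 and the next residue, Phe5, lay a gap of 1.04 to 1.38.

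Phe5, Ala5, Ser5 and Pro5 formed a middle group in which both outcomes were common. Phe5 had a term of 0.57 (SE 0.07, limma adjusted p = 0.0024), with 259 variants that rose and 416 that fell. Ala5 (0.28, adjusted p = 0.017) had 207 and 471, and Ser5 (0.27, adjusted p = 0.015) had 209 and 465. Ala5 was above Ser5 in 2 of 3 screens, by −0.08 to 0.09, and these residues could not be ordered. Pro5 did not pass the test (−0.06, adjusted p = 0.17), with 149 that rose and 528 that fell. Gly5 (−0.64) and Gln5 (−0.67) lay lower and changed places between screens.

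The remaining residues at position 5 were almost uniformly lost. Asn5 had a term of −1.10, His5 of −1.38 and Tyr5 of −1.39, and the last 2 changed places between screens. Asp5 (−1.62), Trp5 (−1.63) and Glu5 (−1.64) could not be told apart, since neighbours in this order differed by 0.03 or less within any screen. Lys5 had −1.58, −1.80 and −2.24 in screens 1 to 3, and Arg5 had −1.68, −1.96 and −2.39, the lowest of all residues in each screen. None of the 800 variants with Lys5 or of the 800 with Arg5 rose, and 799 of each fell. Over all 4000 variants with Asp, Glu, Lys, Arg or His at position 5, 43 (1.08%) rose and 3890 (97.2%) fell, with median log2 changes of −2.73, −3.26 and −3.64. The aromatic residues Tyr5 and Trp5 thus lay beside the charged ones, apart from Phe5.

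Shares of the pool moved accordingly. The 4000 variants with Met5, Ile5, Thr5, Val5 or Leu5 held 58.6%, 60.1% and 61.2% of the reads at T1, against 22.6%, 27.6% and 23.4% at T0. The groups did not overlap, and the mean gain was 35.4 percentage points ± 2.73 (SD, n = 3 screens, two-sided exact permutation of signs p = 0.25, the smallest p that 3 screens allow). These 5 residues were chosen with earlier results of these data known. The gain, the lack of overlap and the p value therefore describe the pool and are not independent support. Cys5 was not part of this class, and its variants held 9.95% ± 0.241 at T1 and 4.94% ± 0.310 at T0. Counting intervals of these shares (95%, Wilson) were 0.0455 percentage points wide or less. Met5 variants held 13.4%, 13.2% and 13.1% at T1, against 4.03%, 5.48% and 4.46% at T0. Arg5 variants held 0.518%, 0.360% and 0.308% at T1, against 3.60%, 3.74% and 4.16% at T0. Variants with a charged residue at position 5 together held 4.76%, 3.78% and 3.41% at T1, against 24.6%, 23.5% and 26.3% at T0. Phe5 variants differed little, with 6.54% ± 0.317 at T1 and 6.13% ± 0.333 at T0 (SD, n = 3 screens). The T0 share of the variants with Met5, Ile5, Thr5, Val5 or Leu5 was itself below that after growth in glucose without DOX (T-1), with means of 32.9% at T-1, 24.5% at T0 and 59.9% at T1. Met5 held 6.58% at T-1, 4.65% at T0 and 13.2% at T1, as means over screens.

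At position 4, large hydrophobic residues and Gly were ahead. Leu4 had the highest term in every screen, at 1.22, 1.26 and 1.37 (estimate 1.29, SE 0.04, limma adjusted p = 0.00024), and 417 of its 800 variants rose, against 28.4% of the library. Met4 (0.98), Gly4 (0.80), Phe4 (0.71) and Ile4 (0.56) followed, with 357, 340, 342 and 310 risen variants. Gly4, the residue of the human tail, had rank 3 in every screen. The lowest terms belonged to Glu4 (−1.13), Asp4 (−0.78), Arg4 (−0.77), Lys4 (−0.70) and Gln4 (−0.64). Of the Glu4 variants 56 rose and 693 fell. Asp4 and Glu4 differ by a single methylene group in the side chain, yet 119 Asp4 variants rose, and Glu4 ranked last in every screen.

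Leu, Ile, Phe and Met also led at position 2, over a smaller range. Leu2 had a term of 0.81 (SE 0.04, limma adjusted p = 0.00024) and was first in each screen, with 342 risen variants of 800. Ile2 (0.58), Phe2 (0.57), Met2 (0.53) and Tyr2 (0.28) came next by the estimate. Ile2 had rank 4 in screen 1 and rank 2 in screens 2 and 3, and Tyr2 and Cys2 (0.25) changed places between screens. Asp2 (−0.84), Glu2 (−0.79), Lys2 (−0.51), Pro2 (−0.36) and Gly2 (−0.22) were lowest, and 110, 112, 159, 176 and 187 of their variants rose. The human residue Ala2 had −0.14 (adjusted p = 0.010), which did not pass without screen 2 (adjusted p = 0.18). Gly2 did not pass when medians replaced means (adjusted p = 0.082).

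The spread of changes over the residues at positions 2 and 4 differed with the residue at position 5. Among variants with one of the 6 favoured residues (Met, Ile, Thr, Val, Leu and Cys) at position 5, the mean log2 changes of the 20 residues at position 4 spanned 3.07 ± 0.18 (SD over 3 screens), and those at position 2 spanned 1.97 ± 0.10. Among variants with Ala, Ser, Phe or Pro at position 5 the spans were 3.17 ± 0.23 and 2.96 ± 0.34. Among variants with a charged residue there they were 1.43 ± 0.34 and 1.04 ± 0.22. In that class 3890 of 4000 variants fell, with median log2 changes of −2.73, −3.26 and −3.64 in the 3 screens. Whether a limit on how far a share can fall in this interval narrowed these spans was not tested. Examples at position 2 show both classes. With Ala, Ser, Phe or Pro at position 5, 91 of 160 Leu2 variants rose and 25 fell, against 9 and 141 of 160 Asp2 variants. With a favoured residue at position 5, 211 of 240 Leu2 variants rose and 4 fell, against 101 and 104 of 240 Asp2 variants.

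Fewer variants rose with each acidic residue at positions 2 and 4. Among the variants with a favoured position 5, 3066 of the 3888 with no Asp or Glu at positions 2 and 4 rose (78.9%), with a mean log2 change of 1.10 ± 0.19 (SD, n = 3 screens). With 1 acidic residue 357 of 864 rose (41.3%), with a mean of −0.39 ± 0.13. With acidic residues at both positions none of 48 rose and all 48 fell, with a mean of −2.95 ± 0.43. Basic residues (Lys, Arg or His) as a class had a milder count, with 74.5% risen for none, 65.0% for 1 and 41.7% for 2. The variants with no basic residue include those with acidic ones, and the reverse. His differed from the others: 181 of 240 His4 variants rose and 28 fell, against 113 and 87 for Lys4. Arg4 had 112 and 83, near the counts of Lys4, while Asp4 had 105 and 101. At position 2, 179 His2, 132 Lys2 and 169 Arg2 variants rose. Of the 784 variants with a favoured position 5 that fell, 147 had Glu4, 101 Asp4, 110 Glu2 and 104 Asp2. Of these 784 variants 3 had Gly4, 2 had Leu4 and 2 had Met4. Among the 42 Met5 variants that fell, 13 had Glu4, 10 had Asp2 and 10 had Glu2.

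Pair terms, the mean of a residue pair minus the sum expected from both residue terms, passed the test for 885 of 1320 pairs, 445 above 0 (33.7%) and 440 below (33.3%). Positions 4 and 5 had 162 above and 159 below of 400, and positions 2 and 3 had 3 and 3 of 40. The highest terms concerned Gly5, a residue that was otherwise lost. Ile4-Gly5 had a pair term of 2.11 (SE 0.09, limma adjusted p = 4.2e-05), and 26 of its 40 variants rose, with mean log2 changes of 0.67, 0.56 and 0.79 in screens 1 to 3. Leu4-Gly5 had a term of 2.06 with 31 of 40 risen, Met4-Gly5 had 1.89 with 30 risen and Phe4-Gly5 had 1.73 with 21 risen. Of the 131 Gly5 variants that rose, 66 carried Ser3 and 65 Thr3. Gly4-Gly5 was the reverse, at −1.62 (adjusted p = 5.3e-05), and all 40 of its variants fell, although Gly4 had rank 3 at its position.

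Pro5 showed the opposite partners. Leu4-Pro5 had the lowest pair term of all, −1.99 (SE 0.08, limma adjusted p = 4.2e-05), with none of 40 variants risen and 34 fallen, and Ile4-Pro5 had −1.55 with 2 risen and 37 fallen. At position 2, however, Leu2-Pro5 had a term of 1.69 with 29 of 40 risen, Tyr2-Pro5 had 1.62 with 20 and Met2-Pro5 had 1.22 with 16. Pro2-Pro5 had −1.12 and all 40 of its variants fell. Of the 149 Pro5 variants that rose, 114 carried Thr3 and 35 Ser3. Leu4 thus had the highest term at its position, a high pair term with Gly5 and the lowest with Pro5. Further low pair terms joined Leu4 to Trp5 (−1.33, all 40 fell) and Arg4 to Phe5 (−1.45, all 40 fell), and outside positions 4 and 5 the lowest were Trp2-Phe5 (−1.27), Pro2-Pro5 and Asp2-Cys5 (−1.11). A pair term is relative to the sum of both residue terms. Leu4-Trp5 variants had a mean log2 change of −3.03 ± 0.43 (SD over 3 screens), and Trp5 was almost uniformly lost beside other residues too. Leu4 thus lacked its usual advantage there. Variants with a charged position 5 had a mean log2 change of −3.06 ± 0.43. Among them those with Leu4 lay 1.04 ± 0.19 above that mean (SD over 3 screens), and 28 of 200 rose. Whether changes as low as those of Leu4-Trp5 left room for a difference was not tested.

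Tyr5 rose almost only beside Gly4 or Leu4. The pair term of Gly4-Tyr5 was 1.85 (SE 0.12, limma adjusted p = 0.00011), at 1.47, 1.93 and 2.16 in screens 1 to 3. Of the 29 Tyr5 variants that rose, 18 had Gly4, 9 had Leu4 and 2 had Met4. All 18 with Gly4 carried Ser3. In this combination, picked after its values were seen, 18 of 20 Ser3-Gly4-Tyr5 variants rose and none fell, with a median log2 change of 1.51, whereas none of the 20 Thr3-Gly4-Tyr5 variants rose and 15 fell, with a median of −1.48. Phe5 did not share this: 17 of 20 Ser3-Gly4-Phe5 and 15 of 20 Thr3-Gly4-Phe5 variants rose. Trp5 beside Gly4 rose in none of 40 variants, and the 5 Trp5 variants of the library that rose all had Met4. The 43 risen variants with a charged position 5 had their own pattern, with Leu4 in 28, Val4 in 7, Ile4 in 6 and Met4 in 2, and with Ser3 in 32 and Thr3 in 11.

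Thr at position 3 was slightly ahead of Ser over the library. The Thr3 term was 0.13, 0.14 and 0.16 in screens 1 to 3 and that of Ser3 the same with the sign turned (limma adjusted p = 0.0067). It did not pass without screen 2 (adjusted p = 0.14) or with medians in place of means (adjusted p = 0.076). Of the 8000 Thr3 variants 2522 rose and 4789 fell, against 2019 and 5294 of the 8000 Ser3 variants. In the 8000 pairs that differ only at position 3, the Thr3 form was higher in 1293 (16.2%) and the Ser3 form in 513 (6.41%) by limma, and in 930 and 298 without screen 2. Both forms rose in 1722 pairs and both fell in 4575. The Thr3 form rose while the Ser3 form fell in 398 pairs, and the reverse held in 87.

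The advantage of Thr3 differed with the neighbouring residues. It was largest beside Thr5, at 1.25 ± 0.16 (mean Thr3 minus Ser3 difference in log2 change, SD over 3 screens), with the Thr3 form higher in 156 of 400 pairs and the Ser3 form in 6. Pro5 (1.23 ± 0.16, 179 and 9) and Cys5 (0.95 ± 0.04, 137 and 19) followed, and Val5 had 0.63 ± 0.07, while Met5 and Leu5 had 0.28 ± 0.06 and 0.25 ± 0.02. At position 4 the difference was largest beside Asp4 (0.83 ± 0.07), Lys4 (0.82 ± 0.05) and Arg4 (0.77 ± 0.07). Beside Glu4 it was 0.69 ± 0.13, and beside the uncharged Gln4 it was 0.68 ± 0.05. The difference was 0.53 ± 0.01 beside His4 and 0.53 ± 0.06 beside Thr4. It ran the other way beside Val4 (−0.46 ± 0.04, 9 and 80), Gly4 (−0.31 ± 0.07, 32 and 66) and Leu4 (−0.24 ± 0.07, 26 and 57). At position 5 it ran the other way beside Tyr5 (−0.35 ± 0.06, 2 and 47) and Asp5 (−0.24 ± 0.05, 9 and 49), and at position 2 beside Pro2 (−0.17 ± 0.01, 12 and 45). With a favoured position 5, 87.4% of Thr3 and 70.3% of Ser3 variants rose when positions 2 and 4 held no acidic residue, and 54.4% and 28.2% rose with 1. With 2 acidic residues none of the 24 variants of either form rose. With no basic residue there 81.8% of Thr3 and 67.1% of Ser3 variants rose, against 35 of 54 and 10 of 54 with 2.

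Individual pairs reached larger differences. The highest, GTSP over GSSP at 5.75 (SE 0.75), rests on 8 reads of GSSP at T1 in screen 3. In rpm (reads per 1000000 reads of the library), STDT had 135, 158 and 155 at T1, against 36.1, 54.8 and 39.5 at T0, whereas its Ser3 partner SSDT had 6.15, 4.90 and 2.82 at T1, against 73.4, 58.9 and 43.6 at T0. STDT rose and SSDT fell in each screen, and the Thr3 minus Ser3 difference was 5.50 (SE 0.33, limma adjusted p = 0.0003). In the other direction RTGY had 18.3, 10.3 and 17.4 rpm at T1, against 145, 119 and 122 at T0, and RSGY had 105, 90.5 and 114 at T1, against 13.6, 22.4 and 24.4 at T0. The difference of this pair was −5.50 (SE 0.33, limma adjusted p = 0.0003). The 3 pairs with the largest Ser3 advantage, RTGY, VTGY and PTGY, all belong to the Gly4-Tyr5 combination.

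The natural tails all rose as shares of the pool, whereas relative to ASGV the change of ASGM was −0.59. The human tail ASGV had 445, 315 and 234 rpm at T1, against 65.0, 61.2 and 42.9 at T0, a log2 change of 2.53 (SE 0.22, edgeR adjusted p = 2.7e-29) and rank 41 of 16000. The yeast tail RSGV had 273, 306 and 268 at T1, against 42.1, 48.5 and 50.2 at T0, a change of 2.59 (SE 0.22). The Arabidopsis tail ASGM had 370, 264 and 319 at T1, against 74.6, 91.3 and 81.8 at T0, a change of 1.93 (SE 0.21). None of these groups overlapped. ATGV, the human tail with Thr3, had 222, 158 and 175 at T1, against 43.9, 55.9 and 53.5 at T0, a change of 1.85 (SE 0.24).

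Single substitutions of the human tail separated the positions. At position 2, 18 of 19 rose and none fell, from YSGV with a log2 change of 2.98 down to KSGV with 2.01, and LSGV (2.44) and DSGV (2.08) lay between them. FSGV did not pass (0.27, SE 0.28, edgeR adjusted p = 0.35), with 76.5, 85.3 and 66.3 rpm at T1, against 54.7, 66.4 and 67.4 at T0, and was singled out after its value was seen. At position 4, 9 of 19 rose and 8 fell. ASWV (2.05), ASLV (1.66) and ASFV (1.34) rose. ASPV had −0.28 (adjusted p = 0.43), and ASKV (−2.42) and ASEV (−3.21, the lowest) fell. ASAV rose by 1.08 (SE 0.42, adjusted p = 0.012), but it did not pass without screen 2 (adjusted p = 0.12), and its change was −0.40 when T-1 replaced T0 as the start. No substitution at position 4 had a higher estimate than ASGV. At position 5, 9 rose and 10 fell, from ASGL (2.06) to ASGG (−3.43), with ASGE at −3.14. LSGM, with changes at positions 2 and 5, rose by 2.06.

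Of the 10 highest changes, 9 combined a favoured position 5 with Gly4 or Leu4, and FTPM had Pro4. WSLL had 235, 322 and 297 rpm at T1, against 21.2, 33.0 and 28.3 at T0, and the highest log2 change, 3.38 (SE 0.23, edgeR). FTGL followed with 142, 245 and 272 at T1, against 11.5, 23.9 and 31.7 at T0 (3.36, SE 0.25), and FSLV had 188, 270 and 324 at T1, against 17.0, 36.8 and 32.1 at T0 (3.22, SE 0.24). The others of the first 10 were YSGV, SSGV, ISLL, HSGI, WSGI, CSGV and FTPM, with changes of 2.85 to 2.98. These 10 were picked for a high T1 share over that at T0, which itself favours a low T0 and a high T1. The pooled share of the 4000 variants with Met5, Ile5, Thr5, Val5 or Leu5 also went from 32.9% at T-1 to 24.5% at T0 and 59.9% at T1. All 10 had a lower mean share at T0 than at T-1, and a higher one at T1 than at T-1. WSLL, for example, had means of 66.7 rpm at T-1, 27.5 at T0 and 285 at T1. Of the 100 highest variants 39 had Gly4 and 27 had Leu4, and 33 had Ile5, 21 Val5, 17 Leu5 and 14 Met5.

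Arg5 was the most common residue at position 5 among the lowest changes. GTGW had 0.324, 0.862 and 0.128 rpm at T1 (8, 35 and 3 reads), against 8.53, 18.5 and 11.8 at T0, a log2 change of −5.02 (SE 0.59, edgeR). ASKR had −4.84, HTRN −4.80, PTQR −4.79 and ASDR −4.54. ASNE, MSAH, WTDR, DSED and LTHR, from −4.53 to −4.47, completed the 10 lowest. Of the 100 lowest, 42 had Arg5, 12 Gly5 and 12 Asp5. FTGL and FSGL, which differ only at position 3, lay at 3.36 and −1.67, and FSGL had only 58, 383 and 66 reads at T0. Its mean was 36.4 rpm at T-1 and 7.06 at T0.

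The interval differed from the next growth cycle, T1 to T2, whose values share the T1 libraries. The first interval began with cells from raffinose, whereas T1 and T2 cells both grew in glucose. Interval and change of sugar cannot be told apart in this comparison. Residue terms, first minus second interval, passed limma's test for 43 of 62 residues, 22 above 0 (35.5%) and 21 below (33.9%). Of the 55 residues with the same sign in both intervals, 49 were closer to 0 in the second. Met5 had 2.68 in the first and 1.56 in the second interval, a difference of 1.12 (SE 0.06, limma adjusted p = 1.0e-06). The largest negative differences at position 5 were those of Lys5 and Arg5. Lys5 had −1.87 in the first and −0.17 in the second interval (difference −1.70, SE 0.11), and Arg5 had −2.01 and −0.37 (difference −1.64, SE 0.09). Glu5, Asp5 and Trp5 also had negative differences, between −1.06 and −0.99. Lys5 variants held 4.98% of the reads at T0, 0.570% at T1 and 0.200% at T2. The median variant of the library had only 99, 249 and 54 reads at T2 in the 3 screens. Whether low counts or background reads at T2 limited the second-interval falls of the lost residues was not tested. Gln5 was different, with −0.67 in the first and −0.63 in the second interval, a difference of −0.03 (SE 0.05, adjusted p = 0.61), and its variants held 6.65% of the reads at T0, 2.98% at T1 and 1.02% at T2.

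Ala5, Ser5 and Phe5 turned from above to below the mean of all variants. Ser5 had a term of 0.27 in the first and −0.37 in the second interval, a difference of 0.64 (SE 0.08, limma adjusted p = 0.00016). Phe5 had 0.57 and −0.19 (difference 0.76, SE 0.08, adjusted p = 4.0e-05), and Ala5 had 0.28 and −0.17 (difference 0.45, SE 0.07, adjusted p = 0.0005). Phe5 variants held 6.13% of the reads at T0, 6.54% at T1, 4.15% at T2 and 3.42% at T3, as means over screens.

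Few residue terms of the first interval differed between glucose and galactose. The arms share their T0 libraries, so the difference compares their T1 libraries. The galactose arm, in which LIMK1 is induced, was grown in 2% raffinose and 1% galactose with DOX at 10 mg/L. The arms thus differ both in medium and in LIMK1 induction. Met5 had a term of 2.68 in glucose and 3.03 in galactose, a difference of −0.35 (SE 0.06, limma adjusted p = 0.020), and Arg5 had −2.01 and −2.24 (difference 0.23, SE 0.05, adjusted p = 0.024). Both terms were further from 0 in galactose. The Thr3 terms were 0.14 in glucose and 0.16 in galactose (difference −0.01, SE 0.02, adjusted p = 0.68). In all 7 terms were higher (11.3%) and 7 lower (11.3%) in glucose, but none passed without screen 2, 3 passed without screen 1 and 35 without screen 3.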

How the data were processed

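Reads per variant were counted by the authors after PCR of the variable region from yeast plasmids and Illumina NovaSeq sequencing, and the deposited counts are raw and whole. The program that assigned reads is not given in the sources used here. Primers carried 8 random bases, whose use as molecular identifiers is not stated, so counts were taken as reads. The T1 and T0 counts of 16000 variants in 3 screens were analysed, with T-1, T2, T3 and the first galactose library for comparison only; 6 later galactose columns and the plasmid pool were not used.

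Each variant's counts went into edgeR 4.0.16 (quasi-likelihood, library sizes equal to the totals, screen as a block). Each T1 culture was diluted from the T0 culture of its own screen, which gives the pairing; deviations from the mean over screens correlated at r = 0.19, 0.32 and 0.11 within screens 1 to 3 and at −0.23 to 0.05 across them. Residue terms, pair terms, Thr3 minus Ser3 differences and differences between intervals or sugars were tested with limma 3.58.1 on 1 value per screen, with 0.5 reads added to each count. Adjusted p values (Benjamini-Hochberg) cover all features of a test, at a threshold of 0.05. Fold changes are ratios of shares of total reads. The steps were tested on simulated data.

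Alternatives were TMM, DESeq2 1.42.0 (size factors and Wald test), scaling to charged position 5 or to ASGV, a minimum of 100 reads in each T0 library, 5 added reads, medians, no block, and leaving out each screen. T-1 as the start was chosen after seeing the data. Named variants are the 10 highest and 10 lowest past the threshold whose sign all screens shared, the natural tails, 10 variants that the study examined, and the extremes of single substitutions of ASGV. Named residues are all at positions 3 and 5, and the 5 highest and lowest and the human one at positions 2 and 4. Named pairs are the 5 highest and lowest of positions 4 and 5 and the 3 highest and lowest of the others. The residue classes, lists and members were chosen with earlier results of these data known. R 4.3.3 and Python 3.11.15 were used.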

Additional observations from a re-analysis of the deposited data

Results flagged for a closer look

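The residue terms of Ser5, Phe5 and Ala5 were called above the mean of all variants in the first interval and below it in the second, with a called difference between intervals (limma, 3 screens each). The first minus second difference was 0.64 for Ser5, 0.76 for Phe5 and 0.45 for Ala5. The mean of all variants itself was −1.36 ± 0.21 in the first and −1.44 ± 0.37 in the second interval. The T1 libraries enter both intervals with opposite sign, and the part of this in the differences was not tested.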

How the results depend on the processing

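The counts of calls depended on scaling. Against 4541 risen and 10083 fallen variants, DESeq2 size factors gave 6251 fallen, the DESeq2 Wald test 6343 fallen, scaling to charged position 5 gave 7145 risen and 2199 fallen, and scaling to ASGV gave 4 risen. These settings moved the median log2 change of all variants, −2.30, by 2.01, 2.01, 2.65 and −2.53, and TMM factors moved it by 1.34. Without the replicate block 4505 rose and 9991 fell, 59 residue terms passed against 56, and none of the named results changed direction or call. The block is used because the cultures of a screen are paired by design. Leaving out each screen gave 4220 to 4502 risen and 9771 to 10029 fallen variants, 44 to 57 residue terms, 658 to 872 pair terms, 1228 to 1826 Thr3 minus Ser3 pairs, 40 to 43 interval differences and 0 to 35 sugar differences against 14, and the gain in share of Met5, Ile5, Thr5, Val5 and Leu5 was 34.2 to 36.9 percentage points. With T-1 as the start, chosen after seeing the data, 2903 Thr3 minus Ser3 pairs passed against 1806. ASPV, at −0.28, was 1.06 with TMM, 1.73 with DESeq2 size factors, 1.74 by DESeq2 and 2.37 relative to charged position 5, where ASKV was 0.23. Relative to ASGV, ASGM was −0.59, LSGV −0.083, DSGV −0.45, ASAV −1.45, ASLV −0.87, ASFV −1.19 and LSGM −0.46, and with T-1 as the start ASAV was −0.40. Pro5 was 0.25 (limma adjusted p = 0.027) with medians. All 96 values of the named pair terms and all 15 of the interval differences of Ser5, Phe5 and Ala5 kept direction and call under the alternatives run. Low counts limit the lowest variants: 28, 0 and 164 variants had under 10 reads at T1 in screens 1 to 3.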
